A study of Prunus avium with 27 samples.

Results

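The gene starts described here carried trimethylation of histone H3 at lysine 4 (H3K4me3) in every chromatin library, while almost no RNA of the gene was measured. They were chosen by measured values: a region of 2000 bp with no identifier of its own, a deposited H3K4me3 signal of 20 or more in all 6 libraries, and a match to 1 gene whose mean RNA level was under 1 TPM (a unit that scales each library to the same total) at each of 3 dates. Of 22798 gene starts that could be taken, 341 met both limits. They made up 2.92% of the 11659 gene starts marked in all 6 libraries and 4.72% of the 7224 gene starts whose RNA stayed under 1 TPM at each date. Their levels are therefore a description of what was chosen, and no test is given for them.

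H3K4me3 is placed by methyltransferases of the COMPASS type and, in plants as in animals and yeast, is found at the starts of genes that are being transcribed. The usual picture is of a mark just downstream of the transcription start that follows the level of transcription, although genes poised or recently switched off can also carry it. In buds of fruit trees the mark has been studied for its loss and gain at genes that follow the dormancy cycle, such as the DAM (dormancy-associated MADS-box) genes.

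The samples were flower buds of the sweet cherry (Prunus avium) cultivar Burlat from orchard trees. They were picked in autumn on 21 October 2014, called date 1, in early winter on 5 December 2014, called date 2, and in midwinter on 27 January 2015, called date 3. Per the labels, buds were dormant in October and December and no longer dormant in January, so dormancy state and date cannot be told apart. RNA was measured in 3 libraries per date (replicates 1 to 3) and H3K4me3 in 2 libraries per date (replicates 2 and 3), from buds of the same branches. Separate trees are not stated for the replicates, and p-values here cover only the spread between these libraries. A bud holds many tissues, and in such bulk samples fewer cells with a mark or a transcript and less of it per cell cannot be told apart. The H3 and input libraries were not analysed here, and the identifiers in the tables stand without gene names, so no function or sequence is given for any member.

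The H3K4me3 signal is a normalised value deposited for each region, and its low end was coarse but not sparse. A signal of 20 stood for 108 to 177 steps of the smallest value in a library, and 25.9% to 32.8% of all 25635 regions lay exactly at that smallest value. Each region covers 500 bp upstream of a gene's start and 1500 bp downstream of it, so signal is compared over equal lengths. The 3 members nearest the signal limit had a lowest library of 20.1, 20.1 and 20.2, and the 3 silent gene starts just outside it had 20.0, 20.0 and 19.9. At the RNA limit the last members had a highest date mean of 0.998, 0.997 and 0.994 TPM, and the first marked gene starts outside it had 1.02, 1.03 and 1.04 TPM.

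**Figure D1:**
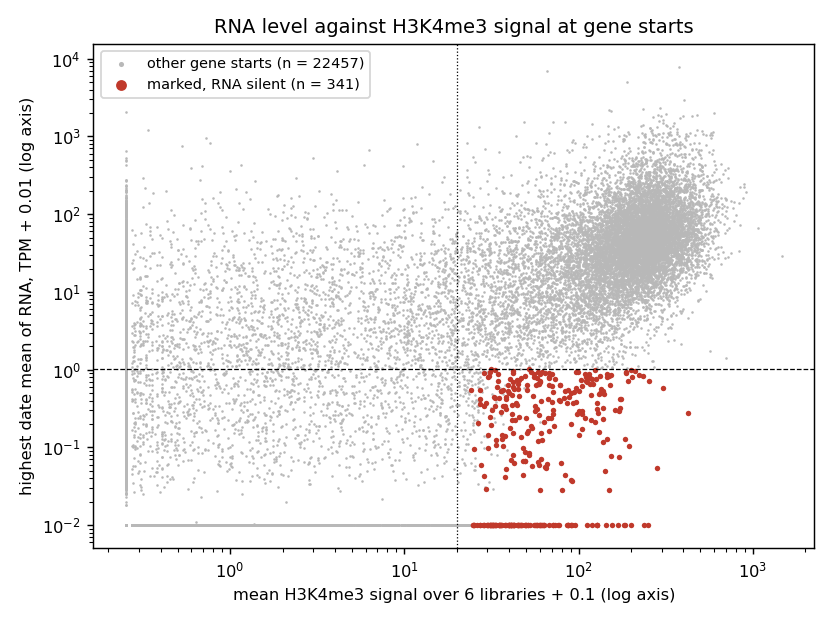
Highest date mean of RNA (TPM plus 0.01, log axis) against the mean H3K4me3 signal over 6 libraries (plus 0.1, log axis) for 22798 gene starts. The dashed line marks 1 TPM and the dotted line a signal of 20; the 341 members lie in the lower right, apart from the mass of marked gene starts with RNA, and 112 of them sit on the bottom line because their RNA is listed at 0 in all 9 libraries.

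Silent gene starts, with a mean RNA level under 1 TPM at each date, were rare among strong marks and made up a larger share of weak ones. Of 598 marked gene starts with a mean signal of 20 to 50, 152 (25.4%) were silent. The share was 7.62% (110 of 1444) between 50 and 100, and 1.84% (68 of 3695) between 100 and 200. Above 200 it was 0.254% (9 of 3548) up to 300 and 0.0842% (2 of 2374) from 300 on. Seen from the other side, 6425 of the 7224 silent gene starts reached a signal of 20 in no library, and 3366 of them (46.6%) lay at the smallest value in all 6. Another 458 reached 20 in 1 to 5 libraries.

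The members' mean signal ran from 24.1 to 423.9, with quartiles of 38.3, 56.0 and 95.01. The 11032 marked gene starts with at least 1 TPM at every date had a median of 209, so the ratio of the medians was 0.268 (SD 0.0479 over 6 libraries). The members' median in each library was 60.0 and 67.4 in October, 49.5 and 56.3 in December, and 50.1 and 46.3 in January. Every October library was above every December and January library, which overlapped. The ratio to marked gene starts with RNA was 0.323 in October, 0.238 in December and 0.233 in January. Of the 341 members, 56 had a signal of 100 or more in all 6 libraries, 94 had a mean under 40, and 9 reached the median of marked gene starts with RNA. In all they held 0.798% to 1.00% of the signal of a library, while their RNA summed to 54.3 to 78.2 TPM of the 1000000 TPM in a library.

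**Figure D2:**
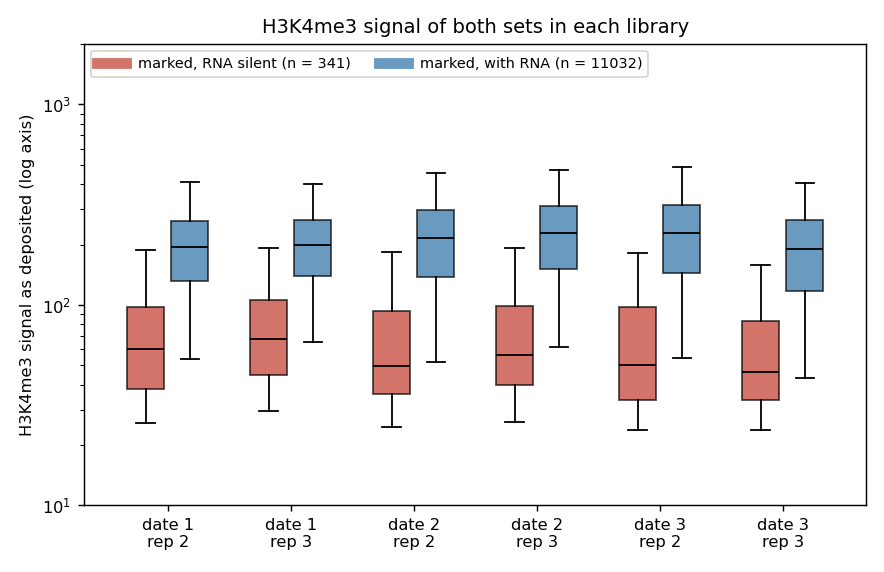
H3K4me3 signal as deposited (log axis) in each of the 6 libraries for the 341 members and for 11032 marked gene starts with RNA. Boxes give the quartiles with the median as a line, and whiskers the 5th and 95th percentiles over gene starts; the members' medians lie between 46.3 and 67.4, and those of the gene starts with RNA between 189 and 229.5.

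Libraries of one date differed more at the members than at marked gene starts with RNA in October and December, and slightly less in January. The median absolute log2 difference between the 2 libraries of a date was 0.16 in October, 0.18 in December and 0.25 in January for the members, against 0.08, 0.11 and 0.27 for marked gene starts with RNA. Over all 6 libraries the highest value was a median of 1.59 times the lowest among the members and 1.38 times among gene starts with RNA. It stayed under 1.5 times in 135 members (39.6%) and in 68.5% of gene starts with RNA. It passed 3 times in 11 members (3.23%) and in 1.72% of gene starts with RNA. The members' signal was weaker, and the part of signal level in these differences was not tested.

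RNA of the members was low in different degrees. It was listed at 0 in all 9 libraries for 112 of them (32.8%), a smaller share than the 66.2% (2227 of 3366) among silent gene starts at the smallest signal. The highest date mean was under 0.1 TPM in 151 members, from 0.1 to 0.5 TPM in 96 and from 0.5 to 1 TPM in 94. At least 0.01 TPM was listed in all 9 libraries for 55 members, and 69 had 1 TPM or more in at least 1 library. The highest single value was 2.36 TPM, in October replicate 1, at the region on scaffold 7 from 5650688 to 5652688, whose gene was listed at 0 in the other 8 libraries. TPM keeps no depth, so whether a value of 0 means no RNA or too few reads was not detectable.

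The strongest mark stood at the region on scaffold 3 from 17552170 to 17554170 (plus strand), where it was above the median of marked gene starts with RNA in every library. Its signal was 432 and 429.9 in October, 420.4 and 438 in December, and 461 and 362 in January, and the dates overlapped. Its gene had 0.415, 0.126 and 0.269 TPM in October, 0.260, 0 and 0.0956 TPM in December, and 0.222, 0.0601 and 0 TPM in January. The next gene upstream was 2432 bp away and had a mean of 29.7 TPM over the 9 libraries.

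The other members among the 5 highest had means of 306 ± 35.7 (SD, n = 6) on scaffold 1 from 43627329 to 43629329, 280.2 ± 19.2 on scaffold 7 from 3099531 to 3101531, 253 ± 32.3 on scaffold 2 from 12977920 to 12979920, and 249 ± 11.0 on scaffold 4 from 23401646 to 23403646. In each of them the lowest library kept a signal above 187. Upstream genes with RNA lay 1741 bp away on scaffold 1 (95.5 TPM), 8727 bp away on scaffold 7 (27.5 TPM) and 1876 bp away on scaffold 2 (4.88 TPM).

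The region on scaffold 4 had no such neighbour. Its signal was 246 and 255 in October, 238 and 259 in December, and 259.8 and 234 in January. RNA of its gene, a locus of 226 bp, was listed at 0 in all 9 libraries. The nearest gene with a mean of 1 TPM lay 11950 bp from the region, and the region runs on past the end of so short a locus.

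The next highest of the members with RNA at 0 throughout and no gene of 1 TPM within 2000 bp of the region were spread over scaffolds 1 and 2. The region on scaffold 2 from 5397236 to 5399236 had a mean signal of 185 ± 21.3 (SD, n = 6) and its nearest gene of 1 TPM was 10202 bp away. On scaffold 1 the region from 13312941 to 13314941 had 144 ± 12.9, and its nearest such gene was 28342 bp away. Elsewhere on scaffold 1 the regions from 10789385 to 10791385 and from 31138847 to 31140847 had 128 ± 7.22 and 111 ± 16.4, with such genes at 4285 and 3987 bp from the region. The locus of the first is 4849 bp long, and a gene with a mean of 515 TPM lay 938 bp beyond it.

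Signal in a region is not assigned to one gene, so genes with RNA inside the members' regions were counted, and their part in the signal was not tested. Another gene with a mean of at least 1 TPM overlapped the region of 19 members (5.57%, 95% Wilson interval 3.60% to 8.54%). The share was 2.57% among marked gene starts with RNA and 3.21% among silent gene starts at the smallest signal. The other gene covered at least 200 bp of the region in 9 members (2.64%). Regions whose windows touched are merged into longer ones in the tables and could not be chosen, so these shares leave out the closest pairs. Such intervals treat genes as independent and cover counting error only.

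The clearest overlap was on scaffold 1 from 29821172 to 29823172, with a mean signal of 223 ± 16.2 (SD, n = 6). A second gene, from 29821702 to 29826111, covered 1471 bp of it and had 52.3 ± 11.5 TPM in October, 21.6 ± 3.19 in December and 27.3 ± 12.4 in January (SD, n = 3). The member's own gene had 0 to 1.31 TPM. The libraries are from a stranded kit, but the sources used here do not say whether counting used strand, so the values of overlapping genes are uncertain.

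On scaffold 6 the region from 20660723 to 20662723, with a mean signal of 70.9 ± 12.4, held 473 bp of a gene with 53.1 to 68.4 TPM as date means. The region from 26389885 to 26391885, with 56.3 ± 10.4, met the definition through 2 bp of a locus with a different kind of identifier (EPlPPEG), which had 388 TPM in December replicate 2 and was listed at 0 in the other 8 RNA libraries. Of the 19 members, 3 had such an identifier as the highest other gene.

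Further away, genes with RNA were also counted. One lay in or within 2000 bp of the region in 140 members (41.1%), in 41.9% of marked gene starts with RNA and in 23.6% of silent gene starts at the smallest signal. The median distance from the region to the nearest gene of 1 TPM was 2913 bp for the members, 2486 bp for marked gene starts with RNA and 7692 bp for silent gene starts at the smallest signal, with upper quartiles of 6294, 4909 and 20088.5 bp. By this distance the members lay nearer to the marked than to the unmarked set.

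By the genes directly beside them, the members stood between the other sets. The nearest upstream gene had at least 1 TPM in 215 members (63.0%), against 75.3% beside marked gene starts with RNA and 41.1% beside silent gene starts at the smallest signal. Downstream the shares were 56.3% (192 members), 77.1% and 40.02%. Neither neighbour reached 1 TPM in 69 members (20.2%), against 6.50% and 39.2%. No test was made of these shares, since both limits of the selection use measured values.

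**Figure D3:**
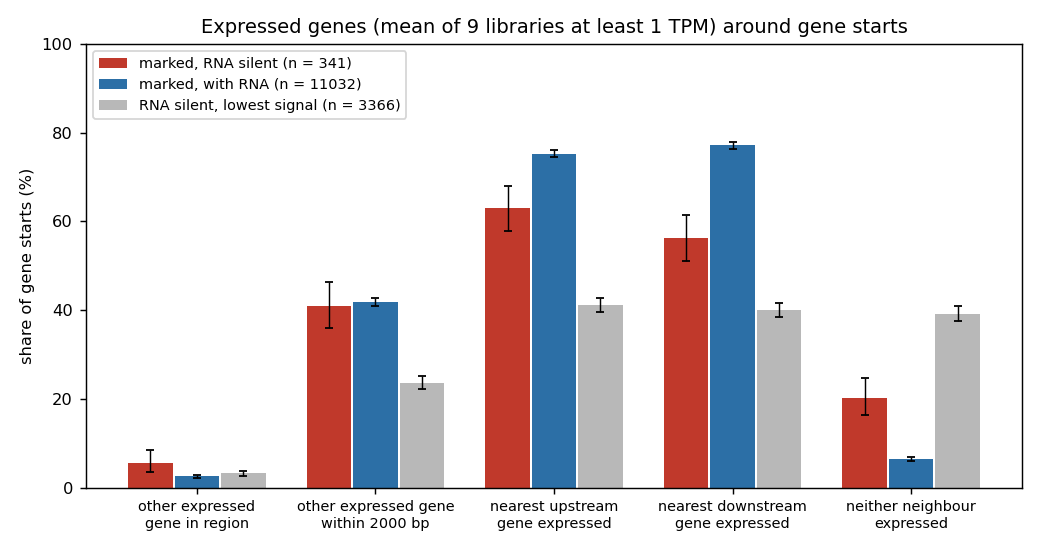
Share of gene starts (percent, bars from 0) with another gene of at least 1 TPM, as a mean of 9 libraries, in the region, in or within 2000 bp of it, directly upstream, directly downstream, or on neither side. Bars compare the 341 members, 11032 marked gene starts with RNA and 3366 silent gene starts at the smallest signal, with 95% Wilson intervals over gene starts; within 2000 bp the members (41.1%) lie beside the gene starts with RNA, and on both sides of the gene between the other sets.

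Their loci were short. The median locus length was 1474 bp (171 to 10439 bp) in the members, 2962 bp in marked gene starts with RNA and 1621.5 bp in silent gene starts at the smallest signal. A locus under 1500 bp, so that the region ran beyond it, was found in 173 members (50.7%), against 15.9% and 45.6%. Identifiers beginning with PRUPE_ppb, in place of the usual PRUPE_ppa, made up 8.50% of the members (29), 0.834% of marked gene starts with RNA and 12.0% of silent gene starts at the smallest signal. The sources used here do not say what the prefix stands for.

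The members were scattered over the genome. They lay on scaffolds 1 to 8 and, with 1 each, on scaffolds 10, 14 and 16. On scaffolds 1 to 8 they made up 1.06% to 1.80% of the gene starts that could be taken, and 165 members were read from the plus strand, 176 from the minus strand. Members that were direct neighbours came as 10 pairs, and no run was longer than 2 genes.

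Between October and January more members were called lower in H3K4me3 than higher. All 341 entered a limma test of log2(signal + 1) over 15360 regions, in which a call is an adjusted p under 0.05 by the Benjamini-Hochberg method. The selection asks for a signal of 20 at every date, so no member fell below 20 and none rose from below 20. Both falls and rises of weak marks are bounded by this among the members. The 15360 regions carry no such limit, so the members' shares of calls beside theirs are a description. Across the 15360 regions the log2 change had a median of 0.15 from October to December, -0.11 from December to January and 0.05 from October to January. Changes of single regions are given relative to these values. Their SEs and adjusted p-values are those of the change before this median was subtracted.

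From October to January, 49 members were called, 8 of them higher and 41 lower. That is 14.4% of the members, beside 15.2% of all regions tested. Calls to a lower signal made up 12.0% of the members and 9.49% of all regions, and calls to a higher signal 2.35% and 5.68%. The members' median change was -0.23, against 0.09 at marked gene starts with RNA. Without October replicate 3 the count was 21 (6.16%), beside 9.43% of all regions.

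From October to December, 11 members were called (4 higher, 7 lower), which is 3.23% beside 7.05% of all regions. Calls to a higher signal made up 1.17% of the members and 4.5% of all regions, and calls to a lower signal 2.05% and 2.55%. The median change was -0.13, and 275 members (80.6%) lay under the median of all regions. Single libraries moved this count and its split. It was 1 (lower) without October replicate 2, beside 1.4% of all regions, and 5 (3 higher, 2 lower) without October replicate 3, beside 4.8%. Without December replicate 2 it was 2 (both higher), beside 3.09%, and without December replicate 3 it was 6 (all lower), beside 3.33%. Leaving out a January library raised the calls among all regions more than among the members: 36 members (10.6%) beside 35.8% without replicate 2, and 32 (9.38%) beside 34.9% without replicate 3. With library medians aligned, lower calls made up a larger part, with 7 members higher and 52 lower (2.05% and 15.2%) beside 11.8% and 11.1% of all regions.

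From December to January, 4 members were called (1 higher, 3 lower), 1.17% beside 1.73% of all regions, of which 0.436% were called higher and 1.3% lower. The median change of -0.12 was close to that of all regions. In limma without December replicate 3 or without January replicate 3 the count was 0, beside 1.02% and 0.599% of all regions. It was 7 without October replicate 3, beside 3.61%, and 25 without January replicate 2, beside 24.8%. With library medians aligned there were 5 higher and 6 lower, beside 2.93% and 2.94% of all regions. An unadjusted p under 0.05 was found for 39 members (11.4%) and for 13.1% of all regions.

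In the F test over the 3 dates 41 members were called (12.0%, beside 14.2% of all regions), and the mean was highest in October in 33 of them, in December in 3 and in January in 5. Over all members the highest mean was in October for 198, in December for 82 and in January for 61. These splits were not counted over all regions, so they are not read as particular to the members. The median signal over all regions was 37.2 and 48.4 in the October libraries, 32.9 and 41.1 in December, and 33.6 and 28.3 in January. The F count was 22 without October replicate 2 (beside 9.3% of all regions), 21 without October replicate 3 (10.6%) and 66 without January replicate 2 (46.9%).

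Other treatments of the same values called more members, and more regions of every kind. With library medians aligned, 98 members (14 higher, 84 lower) were called from October to January beside 36.2% of all regions, 59 from October to December beside 22.9%, 11 from December to January beside 5.87%, and 87 by the F test beside 34.6%. With edgeR on recovered reads the counts were 89 (14 higher, 75 lower) beside 32.4%, 48 beside 19.8%, 10 beside 4.93% and 78 beside 30%. With DESeq2 on recovered reads they were 114 (15 higher, 99 lower) beside 41.1%, 84 beside 29.6%, 29 beside 13.6% and 123 beside 43.5%. In each of these the members' share of calls was below that of all regions, but from October to January this held for higher calls and not for lower ones. Higher calls then made up 4.11% of members beside 18.8% of all regions with aligned medians, 4.11% beside 16.8% with edgeR and 4.4% beside 20.1% with DESeq2. Lower calls made up 24.6% beside 17.4%, 22% beside 15.6% and 29% beside 21%.

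Marked gene starts with RNA and a signal as weak as the members' were also lower in January. Among members with a mean signal of 20 to 50, the median change from October to January was -0.21, and it was also -0.21 at marked gene starts with RNA in the same range, with 4.61% and 12.9% called. Between 50 and 100 it was -0.39 in the members and -0.21 in gene starts with RNA, with 25.5% (28 of 110) and 26.4% called. Between 100 and 200 the medians were -0.06 and 0.02, with 19.1% and 14.8% called. From October to December the medians were -0.16 in the members and -0.05 in gene starts with RNA between 20 and 50, -0.18 and -0.01 between 50 and 100, and 0.01 and 0.14 between 100 and 200. The difference between the sets within a range was not tested.

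**Figure D4:**
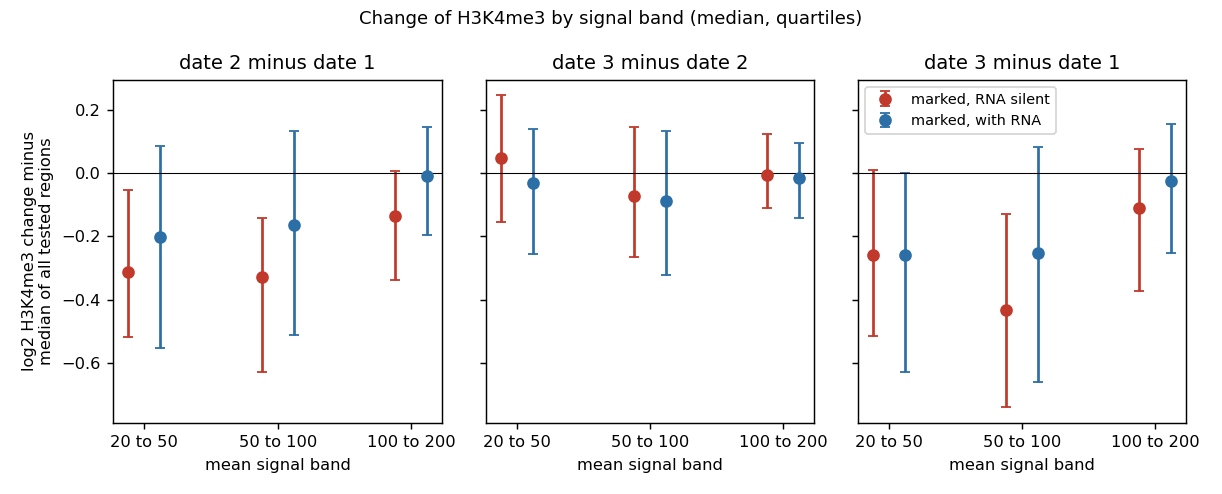
Change of H3K4me3 between dates (log2, minus the median of all 15360 regions tested) by range of mean signal, for members and for marked gene starts with RNA. Points are medians and bars the quartiles over gene starts, not errors of the median; below a signal of 100 the medians of both sets lie below 0 in January against October, and their quartile ranges overlap in every range and comparison.

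The largest rise was at PRUPE_ppa014311mg, on scaffold 1 from 4683721 to 4685721. Its signal was 24.0 and 25.4 in October, 40.9 and 31.4 in December, and 89.0 and 91.3 in January. The libraries of the 3 dates did not overlap, and each later date was higher. Regions named for their change, here and below, were taken only where libraries of the 2 dates compared did not overlap. That part of the separation was therefore fixed by the choice. Its RNA was listed at 0 in the 3 October libraries and was 0.505, 0.611 and 0.768 TPM in December and 0.886, 0.249 and 0.358 TPM in January. Relative to all regions the mark rose by 1.78 (SE 0.28) on the log2 scale from October to January (limma, adjusted p = 0.000313). From December to January it rose by 1.42 (SE 0.28, limma, adjusted p = 0.0242), a call that was lost without December replicate 3 or January replicate 3.

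The next largest rise was at PRUPE_ppa023180mg, a locus of 5599 bp on scaffold 8 with its region from 13204165 to 13206165. The signal was 34.2 and 50.3 in October, 71.0 and 77.9 in December, and 100.6 and 94.3 in January, again with no overlap between dates. RNA was 0.133, 0 and 0 TPM in October, 0.165, 0.0988 and 0.185 TPM in December, and 0.288, 0.250 and 0.340 TPM in January. The relative change of the mark was 0.68 (SE 0.23) to December and 1.17 (SE 0.23) to January, both against October. Before subtraction of the median the changes were 0.83 (limma, adjusted p = 0.0423) and 1.21 (limma, adjusted p = 0.002). The first of these calls was lost without October replicate 2 and without either December library.

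The steepest falls ended close to the limit of the selection. At PRUPE_ppa000863mg, on scaffold 7 from 17271714 to 17273714, the signal was 79.8 and 94.5 in October, 47.0 and 75.2 in December, and 26.2 and 32.2 in January. The dates did not overlap. The relative change from October to January was -1.59 (SE 0.27, limma, adjusted p = 0.00107). RNA ran from 0.182 to 0.296 TPM in October and from 0.0767 to 0.289 TPM in January, which overlap.

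At PRUPE_ppa016217mg, on scaffold 1 from 46504971 to 46506971, the signal was 87.5 and 113 in October, 60.9 and 86.0 in December, and 35.3 and 32.8 in January. Its relative change was -1.57 (SE 0.24) from October to January (limma, adjusted p = 0.000477) and -0.96 (SE 0.24) from December to January (limma, adjusted p = 0.0355), the second of which was lost without December replicate 3 or January replicate 3. RNA was 0.242, 0.292 and 0.157 TPM in October and 0.128, 0.0669 and 0.0989 TPM in January, which do not overlap. This RNA change from October to January was not called in a limma fit of all genes without a filter on low values. It was -0.16 in log2(TPM + 1) (SE 0.077, limma, adjusted p = 0.165).

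**Figure D5:**
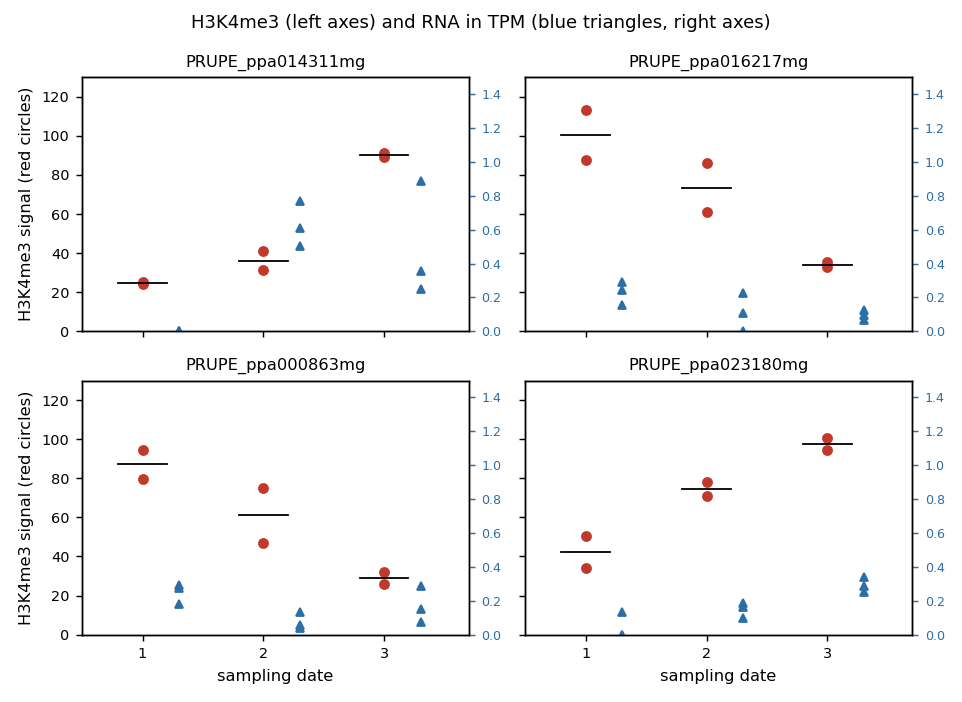
H3K4me3 signal of each library (red circles, left axes from 0, black bars at the date means) and RNA of each library in TPM (blue triangles, right axes from 0) at the 3 dates for the 2 members with the largest called rises and the 2 with the largest called falls from October to January. The mark climbs from about 25 to 90 at PRUPE_ppa014311mg and drops below 36 in January at both falling members, while all RNA values stay under 1 TPM.

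Further members had the largest called changes between adjacent dates, and some of them were called from October to January as well. On scaffold 3 the region from 8417359 to 8419359 had a signal of 58.9 and 64.9 in October, 98.2 and 122 in December, and 97.7 and 104 in January, while RNA of its 202 bp locus was listed at 0 in all 9 libraries. The relative change to December was 0.67 (SE 0.19, limma, adjusted p = 0.0217), a call lost without October replicate 2 or December replicate 3.

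A fall to December was called on scaffold 8 from 13239421 to 13241421 (-1.24 relative, -1.10 before subtraction, SE 0.32, limma, adjusted p = 0.0477). Another was called on scaffold 3 from 17379190 to 17381190 (-1.15 relative, -0.997 before subtraction, SE 0.25, limma, adjusted p = 0.0262). The first was lost without either October library or without December replicate 2, and the second without October replicate 2 or December replicate 2. On scaffold 6, from 1452729 to 1454729, the signal was 81.5 and 89.6 in October, 83.1 and 79.9 in December, and 42.7 and 45.9 in January. Its relative change from December to January was called (-0.75, SE 0.21, limma, adjusted p = 0.0482), a call lost without January replicate 3 or without either December library.

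RNA could be tested for few members. In the limma test of log2(TPM + 1) over 18384 genes (1 TPM or more in 3 or more libraries), 8 members entered and 0 were called by the F test over dates (0 at an unadjusted p under 0.05), beside 71.8% of all genes tested. The selection used these values and holds every date mean under 1 TPM, so this count was nearly fixed by it and nothing is read from it. When all 29449 genes were fitted without a filter, 23 of the 341 members were called by the F test (6.74%, beside 41.8% of all genes), and 26 from October to January (9 higher, 17 lower, 7.62% beside 36.1%, with 18.3% of all genes higher and 17.7% lower). With a filter of 0.1 TPM, 20 of 167 members were called by the F test, beside 66.1% of all genes. The limit of 1 TPM also bounds changes in log2(TPM + 1) in these fits. Their lower shares were set largely by the selection, and nothing is read from them either.

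Low as it was, RNA of the members was set beside the calls of the mark between October and January, without a test. Of the 8 members called higher in H3K4me3, the mean TPM was higher in January in 6, lower in 0 and under 0.01 at both dates in 2. Of the 41 called lower, it was lower in January in 26, higher in 8 and under 0.01 at both dates in 7. Among the 292 members without a call it was higher in 72, lower in 105 and under 0.01 at both dates in 115. The same split was not counted over other gene starts, so it is not read as particular to the members.

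In the fit without a filter, 13 members were called in both assays from October to January, 12 with the same direction and 1 with opposite directions. They are 3.81% of the members, beside 10.04% (1355 of 13494) of all gene starts tested in both assays. Of the 1355, 1319 had the same direction in both (97.3%, beside 92.3% of the 13). The limit on the members' RNA holds their share down, so nothing is read from the lower share. The strongest signal among the 13 was on scaffold 3 from 18774340 to 18776340, with 291 and 259.8 in October, 174 and 169 in December, and 161 and 164 in January. Its RNA was 0.998, 0.762 and 0.644 TPM in October, 0.0386, 0 and 0.113 TPM in December, and 0.0660, 0.0717 and 0.0524 TPM in January. October stood above both later dates in both assays, and the changes to January were -0.80 in H3K4me3 relative to all regions (limma, adjusted p = 0.00127) and -0.76 in log2(TPM + 1) (limma, adjusted p = 0.000298). The exception was on scaffold 4 from 14758812 to 14760812, where H3K4me3 was lower (-0.55 relative to all regions, limma, adjusted p = 0.0281) and RNA higher (0.58, limma, adjusted p = 0.0401) in January. Both regions were singled out after their values were seen, and the selection itself used their RNA levels.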

How the data were processed

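The authors deposited RNA as TPM, with 1000000 per library in total over 29449 genes. TopHat and Picard are named for RNA in the submitters' processing notes, and FastQC, Trimmomatic, Bowtie2, Picard and DiffBind for H3K4me3. The program behind the TPM, the genome build and any subtraction of a control are not stated in the material used here, and positions are as the tables list them. For H3K4me3 the authors deposited 1 normalised signal value per region and library, named TMM per the file headers. All values of a library (100%, within 0.01) were whole multiples of its smallest value. This gives 14216613 to 28126160 steps per library, which were taken here as recovered reads. The smallest value, shared by 25.9% to 32.8% of regions, may be a floor. Whether the steps are raw reads or counts after subtraction of a control is not stated. Depth behind the TPM is unknown.

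A region was matched to a gene when the locus started 500 bp inside it on the plus strand, or ended 500 bp inside its far end on the minus strand. This gave the labelled gene for all 671 regions that carry an identifier. Members, lists and rules for named regions were chosen with earlier results of these data known. Named were the members with the highest signal, those with RNA at 0 and no expressed neighbour, those overlapping an expressed gene, and the 2 largest called rises and falls per comparison with no overlap between dates. They also include the members nearest each limit and those with the highest TPM of a single library. Of the 341 members, 0 matched the 37283 genes of the RefSeq table (assembly drPruAviu1.hap1.1), so no names are given.

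limma 3.58.1 (R 4.3.3, intensity trend, date as the only factor, two-sided) was run on log2(signal + 1) for 15360 regions (signal 10 or more in 2 or more libraries), and on log2(TPM + 1) for 18384 genes, with Benjamini-Hochberg adjustment over all features and a threshold of 0.05. Fold changes on these scales understate changes of low values. As alternatives, the recovered reads were tested with DESeq2 1.42.0 and the quasi-likelihood test of edgeR 4.0.16. The tests were checked on simulated data.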

Additional observations from a re-analysis of the deposited data

How the results depend on the processing

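The count of 341 members followed its limits: it was 589 with a signal minimum of 10, 127 with 50, 515 with a TPM limit of 2 and 112 with RNA at 0 throughout, and 336 to 381 without single libraries. For calls in H3K4me3 from October to December (11), December to January (4), October to January (49) and over dates by the F test (41), DESeq2 on recovered reads gave 84, 29, 114 and 123, edgeR on recovered reads 48, 10, 89 and 78, and aligned library medians 59, 11, 98 and 87. Without a filter on low signal they were 0, 0, 11 and 4 (limma, fitted and adjusted over all 25635 regions). A signal of at least 20 in all 6 libraries as the filter gave 29 and 11 for the first 2 and 65 for the F test, a pseudocount of 0.1 gave 5 and 1 for the first 2, and fitting the libraries of October and December alone gave 34 for the first. Without single libraries the counts ran from 1 to 36, 0 to 25, 21 to 59 and 21 to 66. The causes were not tested. Where no share of all regions is given for a setting, its count is not read as particular to the members. RNA calls by the F test (0) were 20 with a filter of 0.1 TPM, 23 with none and 0 without any single library. The share of members with another expressed gene (5.57%) was 41.1% within 2000 bp and 2.64% with 200 bp covered. The ratio of medians (0.268) was 0.323 in October and 0.253 to 0.279 without single libraries. Of the 11 calls of the largest changes, 0 reversed under any alternative, while 9 were lost without a filter, 4 with a pseudocount of 0.1 and 17 of 66 when single libraries were left out.

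Replicate numbers were not taken to pair the samples over all dates: deviations of same-numbered libraries correlated at 0.53 between October and December in H3K4me3, but at -0.07 and -0.10 with January, and at -0.09 to 0.11 in RNA. A replicate block gave 9, 6, 47 and 40 calls in H3K4me3 and 0 in RNA. With the numbers crossed in January, a pairing chosen after seeing the data, the counts were 59, 34, 104 and 102. Shares of all regions are not given beside the counts with a block, so nothing particular to the members is read from them. The depth behind the members' TPM is unknown.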
